A study of Caenorhabditis elegans with 6 samples.

Results

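The pals genes of Caenorhabditis elegans were taken as every gene in the deposited count table whose name is pals followed by a number. This gave 38 members among 22407 genes with counts. The reference annotation lists 1 further locus, the pseudogene pals-36, which was not analysed here. The libraries came from pooled whole worms of strain AM140, in which the unc-54 promoter drives a fusion of 35 glutamines to yellow fluorescent protein (rmIs132) in body wall muscle. All worms ate HT115 bacteria, carrying either an empty vector (EV group, 3 libraries) or an RNAi construct directed at the gtr-1 3'UTR (gtr-1 RNAi group, 3 libraries). Both generations were kept on the same food at 20 °C, and generation 2 was collected on day 6 of adulthood. Because whole animals were pooled, a change in the size of a tissue and a change of RNA within its cells cannot be told apart.

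The pals genes encode proteins with a shared divergent domain, the ALS2CR12 signature, and the family is much larger in C. elegans than in mammals. Many members are switched on together in the intracellular pathogen response, or IPR, which follows infection of the intestine by microsporidia or the Orsay virus, or a block of the proteasome. The genes pals-22 and pals-25 are an antagonistic pair: PALS-22 holds the response down and PALS-25 promotes it, and loss of pals-22 also improves survival under heat stress and changes the silencing of repetitive transgenes. A comparable set is formed by pals-17, a repressor of the response, and by pals-20 and pals-16, which are needed for the response when pals-17 is lost. The gene pals-5 itself stays nearly silent in healthy worms, and its promoter drives the common fluorescent reporter of the response.

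Total counts were 33254426 to 41902475 per library. The submitters' design text mentions 3 sets of worms without saying if each set was raised on its own. The p-values therefore rest on the spread among libraries, and this spread may be technical only. The targeted transcript, gtr-1, was at 16, 25 and 20 counts under EV and at 20, 24 and 19 counts under gtr-1 RNAi, so its count does not separate the groups, and directions below are those of the libraries labelled gtr-1 RNAi. On the main axis of variation, gtr-1 RNAi replicate 3 lay between the EV libraries and the other gtr-1 RNAi libraries. Over tested genes, the root mean square difference in log2 CPM between it and EV replicate 1 was 0.27, the smallest of all 15 pairs of libraries. The same difference was 0.49 and 0.62 between it and gtr-1 RNAi replicates 1 and 2. Among the 14683 genes tested, the edgeR quasi-likelihood test called 0 at an adjusted p under 0.05, and 1898 higher and 2242 lower at an unadjusted p under 0.05.

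A minority of the family was expressed in these day 6 adults, at low levels. With 1 CPM (counts scaled to library size with TMM factors) in at least 3 of the 6 libraries as the limit, 14 of 38 members were expressed, which is 36.8%, against 54.3% of all genes with counts. They were pals-6, pals-14, pals-16, pals-17, pals-22, pals-23, pals-24, pals-25, pals-26, pals-27, pals-33, pals-34, pals-37 and pals-39. Of these, 12 passed that level in all 6 libraries; the exceptions were pals-16, which passed in the 3 gtr-1 RNAi libraries, and pals-27, which missed it in 1. Another 10 members had enough counts to be tested but lay below the limit: pals-1, pals-4, pals-18, pals-19, pals-20, pals-29, pals-31, pals-32, pals-38 and pals-40. The remaining 14 were not tested. All pals genes together held 2073 to 2654 counts per library. Their summed level was 58.9 ± 3.27 CPM in EV worms, against 62.0 ± 4.12 CPM in gtr-1 RNAi worms (mean ± SD, n = 3 each), ranges of 55.2 to 61.1 and 58.6 to 66.5 that overlap.

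**Figure D1:**
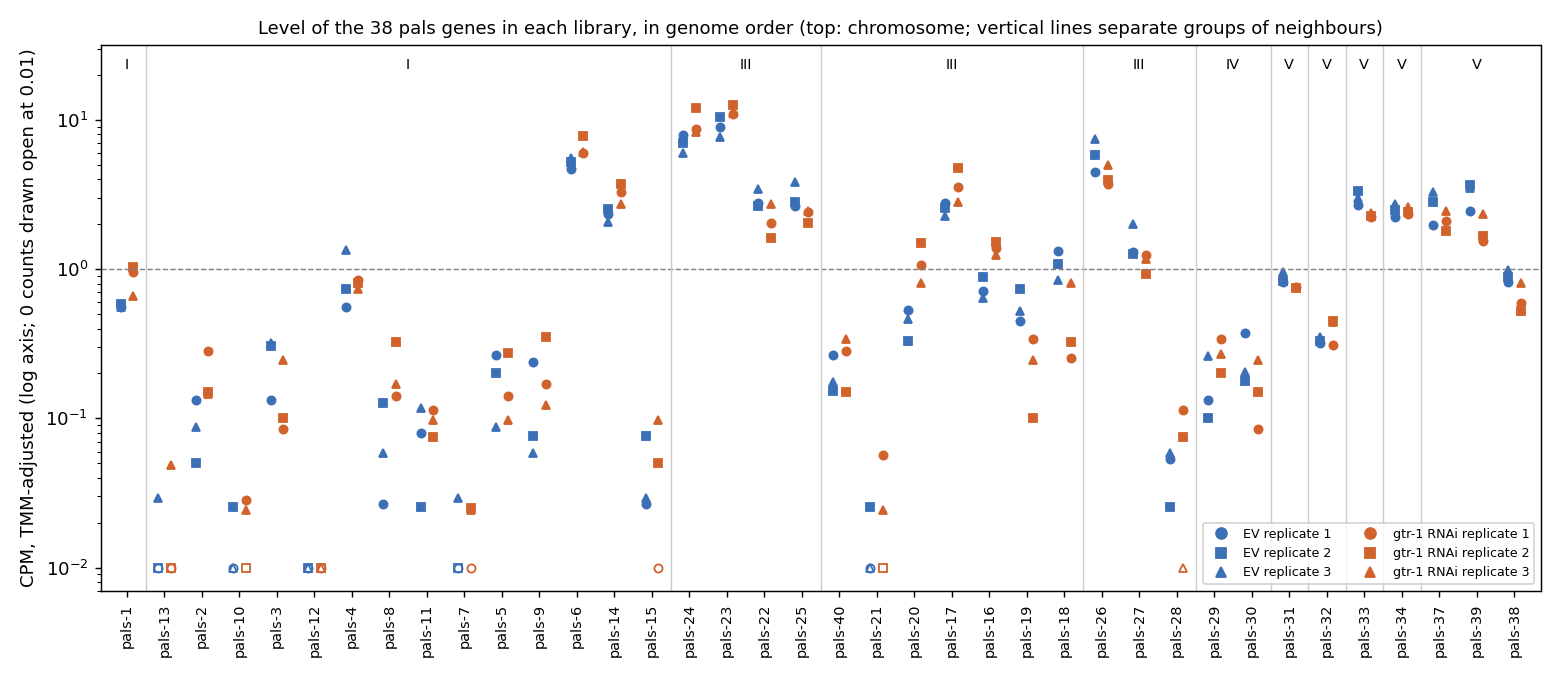
Level of each of the 38 pals genes in CPM, TMM-adjusted, on a log axis, with 1 point per library and the genes in genome order. The dashed line marks 1 CPM, and libraries with 0 counts are drawn as open symbols at 0.01. Members of the chromosome I group other than pals-6, pals-14 and pals-4 lie far below the line, while all 4 members of the first chromosome III group lie above it.

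Per exon length, the most abundant transcripts under EV were pals-24 at 10.2 ± 1.39 TPM (length-scaled transcript abundance, from the summed exon length) and pals-23 at 8.99 ± 1.28 TPM (mean ± SD, n = 3 each), which differ by less than these SDs. Then came pals-6 at 5.32 ± 0.450 TPM, pals-22 at 4.94 ± 0.775 TPM, pals-34 at 4.92 ± 0.511 TPM, pals-17 at 4.34 ± 0.442 TPM and pals-25 at 4.28 ± 0.907 TPM, where neighbours in the order differ by less than the sum of their SDs. The highest member, pals-24, stood above 65.8% of all genes with counts on this scale, and pals-22 above 58.8%. The reporter gene pals-5 was at 0.250 ± 0.122 TPM, above 30.2% of genes. With 1 TPM in at least 3 libraries as the limit, pals-1, pals-20 and pals-31 also counted as expressed, for 17 members in all. Of these additions, pals-1 and pals-20 reached the limit only in the gtr-1 RNAi libraries, and pals-31 reached it in every library.

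Expressed members were spread unevenly over the genome. On WBcel235 the 38 members lie on chromosomes I, III, IV and V, in 11 stretches in which neighbours are at most 20000 bp apart. The largest holds 14 members in 61.3 kb of chromosome I (13083321 to 13144623), but only 2 of them were expressed, pals-6 and pals-14. The stretch at the left end of chromosome III (120435 to 137975) holds pals-24, pals-23, pals-22 and pals-25 in that order on the + strand. All 4 were expressed, and they gave 39.5% of the summed CPM of the family over the 6 libraries, against 17.4% for the 14 members on chromosome I. A second chromosome III stretch (1376945 to 1406263) holds 7 members, pals-40, pals-21, pals-20, pals-17, pals-16, pals-19 and pals-18, of which 2 were expressed. Both expressed members of another stretch (4375154 to 4387757), pals-26 and pals-27, lie beside the nearly silent pals-28. Chromosome V carries the pals-37, pals-39 and pals-38 stretch (12437440 to 12446995) and 4 single genes.

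Low counts need care where gene models overlap or are much alike. Of the 1191 exon bases of pals-12, 99.5% are also exons of pals-3 on the same strand, and pals-12 had 0 counts in all 6 libraries. Reads from that stretch cannot be assigned to 1 gene, so this 0 says little about pals-12. The next largest share outside the family was that of pals-20: 50.8% of pals-20 is covered by exons of Y82E9BR.5 on the opposite strand. How strand was used in counting is not given in the sources used here, and the sequences of the members were not compared here, so counts of close paralogs are uncertain as well.

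At an adjusted edgeR p under 0.05, 0 of 24 tested members differed in either direction, against a background of 0% of all tested genes in either direction. The smallest adjusted p in the family was 0.112, which is also the smallest of any gene. At an unadjusted p under 0.05, 8 members were higher in gtr-1 RNAi, where 12.9% of tested genes were, and 4 were lower, where 15.3% were. Without gtr-1 RNAi replicate 3, edgeR called 5 members higher (pals-14, pals-16, pals-17, pals-20 and pals-24) and 3 lower (pals-18, pals-22 and pals-39), while it called 1308 higher and 2236 lower genes in all. The number of genes tested in that fit is not given here, so members and all genes were not compared as shares. DESeq2 called 1 member higher, pals-20, and 1 lower, pals-39, with a background of 6.65% higher and 7.57% lower among genes with an adjusted p; it gave none for 4 tested members. The limma-voom test with sample quality weights, which gives less weight to libraries that stand away from their group, called 6 higher and 6 lower, with a background of 16.1% and 21.6%.

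Across the family the values parted in both directions. Of the 24 tested members, 11 had positive and 13 negative log2 fold changes, from -1.33 to 1.35, with a median of -0.077 beside -0.0025 for all tested genes. The median size of the change, sign aside, was 0.47 on the log2 scale for the members. It was 0.16 for all tested genes and 0.33 for the 7166 tested genes with a mean level within the members' range of 0.218 to 10.3 CPM. The groups did not overlap in CPM for 8 members that were higher, with a background of 16.6%, and for 8 that were lower, with a background of 19.6%. Together these are 66.7% of the tested members, against 36.2% of all tested genes and 33.8% of those in the same range of levels. An unadjusted p under 0.05 was met by 50.0% of the members, 28.2% of all tested genes and 24.95% of those in that range. Only the ends of that range were matched, not the levels within it. Members that passed the low count filter are not the whole family, and the shares were not tested.

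**Figure D2:**
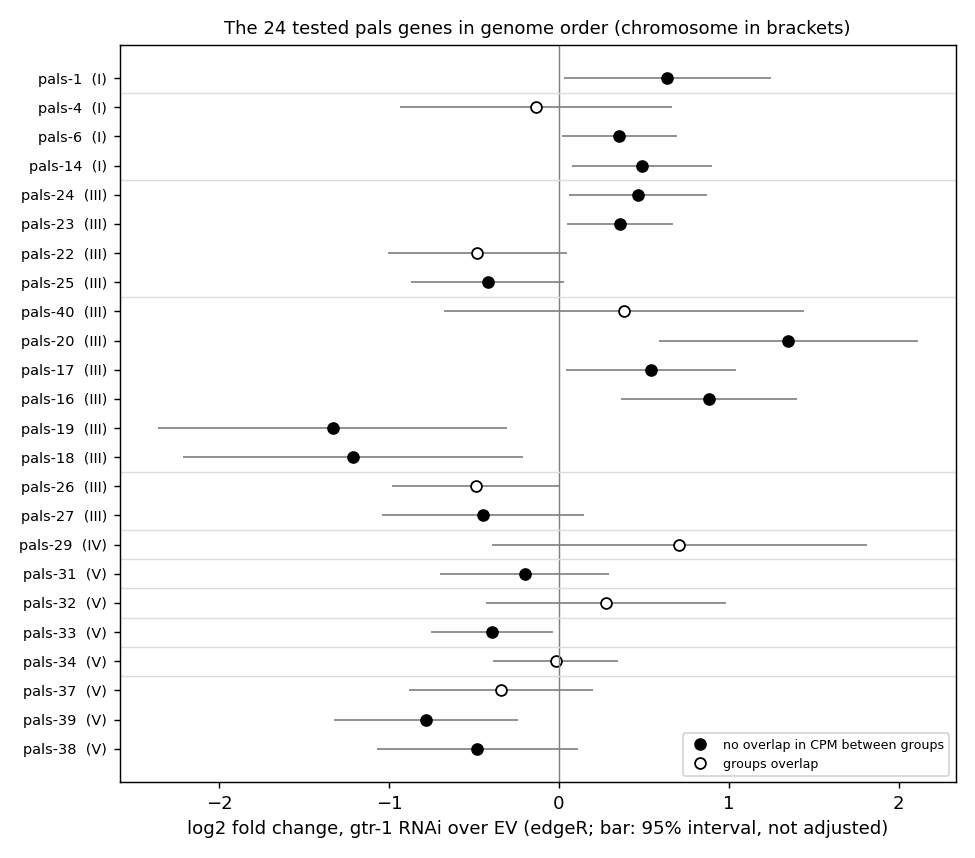
Fold change on the log2 scale (edgeR, gtr-1 RNAi over EV) with its 95% interval, not adjusted for the number of genes, for the 24 tested members in genome order. Filled points mark members whose groups do not overlap in CPM. Neighbours on chromosome III lie on both sides of 0, from pals-20 at 1.35 to pals-19 at -1.33.

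Among the regulators, both members of the antagonistic pair were lower on average under gtr-1 RNAi. The repressor gene pals-22 was at 2.79, 2.66 and 3.47 CPM in EV replicates 1 to 3 and at 2.03, 1.63 and 2.72 CPM in gtr-1 RNAi replicates 1 to 3. The groups overlap, since gtr-1 RNAi replicate 3 reached the level of EV replicate 2. The log2 fold change was -0.48 ± 0.23 SE (edgeR adjusted p = 0.205), and -0.70 (adjusted p = 0.0405) without gtr-1 RNAi replicate 3. With any other library left out it ran from -0.55 to -0.31, with edgeR adjusted p from 0.269 to 0.471. Its partner pals-25, which starts just downstream on the same strand, measured 2.66, 2.81 and 3.82 CPM in the EV libraries, and 2.43, 2.03 and 2.47 CPM in those of gtr-1 RNAi. Every gtr-1 RNAi library was below every EV library, with a log2 fold change of -0.42 ± 0.19 SE (adjusted p = 0.200). The 2 fold changes differ by less than their SEs.

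The second regulatory set was higher under gtr-1 RNAi in all 3 of its members, none past the adjusted edgeR threshold. The repressor gene pals-17 measured 2.79, 2.58 and 2.27 CPM in the EV libraries, and 3.56, 4.76 and 2.84 CPM in those of gtr-1 RNAi, with a log2 fold change of 0.54 ± 0.22 SE (adjusted p = 0.154). The groups are separate, though gtr-1 RNAi replicate 3 was only just above EV replicate 1. The gene pals-20, one of the positive regulators, had 20, 13 and 16 counts under EV and 38, 60 and 33 counts under gtr-1 RNAi, or 0.442 ± 0.103 against 1.129 ± 0.352 CPM (mean ± SD, n = 3 each). Its log2 fold change of 1.35 ± 0.33 SE was the highest of the 24 tested members (edgeR adjusted p = 0.112; DESeq2 adjusted p = 0.0377). It ran from 1.09 to 1.55 with any 1 library left out. With 1 library left out, DESeq2 called it without gtr-1 RNAi replicate 3 (adjusted p = 0.00794) and gave no adjusted p in the other 5 fits.

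The other positive regulator, pals-16, had 27, 35 and 22 counts under EV and 49, 61 and 51 counts under gtr-1 RNAi, or 0.748 ± 0.125 against 1.39 ± 0.141 CPM (mean ± SD, n = 3 each). The 3 gtr-1 RNAi libraries were close to each other and all above EV, with a log2 fold change of 0.88 ± 0.22 SE (edgeR adjusted p = 0.112; DESeq2 adjusted p = 0.0859). The antisense neighbour of pals-20, Y82E9BR.5, had a fold change of the opposite sign, at -0.27 ± 0.31 SE (adjusted p = 0.591), with 57, 64 and 27 counts under EV and 30, 47 and 50 under gtr-1 RNAi.

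The reporter gene pals-5 was near the detection limit in both groups. It had 10, 8 and 3 counts under EV and 5, 11 and 4 counts under gtr-1 RNAi, so the groups overlap fully. From the summed counts, adjusted for library size, gtr-1 RNAi over EV was 0.914, with a 95% exact binomial interval of 0.470 to 1.77 that covers counting error only. DESeq2, whose error also holds the spread among libraries, gave a log2 fold change of -0.099 ± 0.94 SE (unadjusted p = 0.916). Changes within the counting bounds, and some outside them, may thus have gone undetected at this depth.

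**Figure D3:**
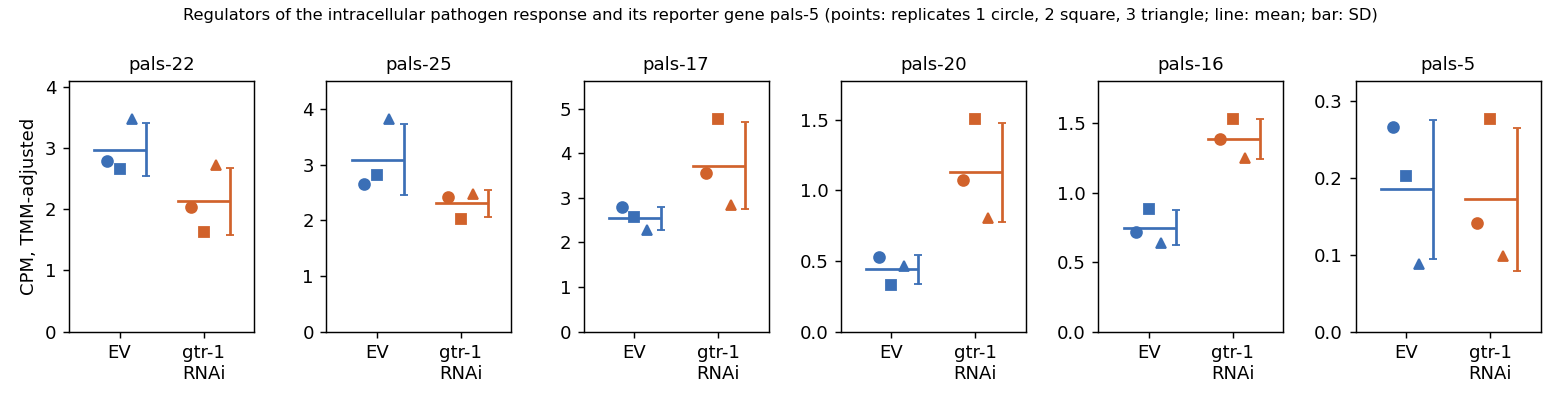
CPM, TMM-adjusted, in each library for the regulators pals-22, pals-25, pals-17, pals-20 and pals-16 and for pals-5, with the group mean as a line and the SD as a bar (n = 3 per group). Each axis starts at 0 and has its own scale. In gtr-1 RNAi, pals-25 lies below and pals-17, pals-20 and pals-16 lie above all EV libraries, while pals-22 and pals-5 overlap.

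Members next to each other on chromosome III had fold changes of opposite sign, which edgeR did not call. At the left end, pals-24 measured 7.89, 7.04 and 6.01 CPM in the EV libraries, and 8.73, 11.96 and 8.25 CPM in those of gtr-1 RNAi (edgeR log2 change 0.47 ± 0.17 SE with adjusted p = 0.142). The next gene, pals-23, measured 9.03, 10.5 and 7.64 CPM in the EV libraries, and 10.99, 12.6 and 11.2 CPM in those of gtr-1 RNAi (edgeR log2 change 0.36 ± 0.13 SE with adjusted p = 0.142). Both were above EV in every gtr-1 RNAi library, whereas pals-22 and pals-25 downstream had negative fold changes. The ratio of the counts of pals-23 and pals-24 to those of pals-22 and pals-25, which needs no scaling between libraries, was 3.11, 3.20 and 1.87 in EV replicates 1 to 3. It was 4.42, 6.71 and 3.74 in gtr-1 RNAi replicates 1 to 3, so the groups do not overlap. These genes were set against each other after their values were seen, so the separation adds nothing to the members' own values. The ratio was not tested.

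In the second chromosome III stretch, pals-19 and pals-18 lie directly after pals-16 on the same strand and had negative fold changes, where that of pals-16 was positive. Under EV, pals-18 had 50, 43 and 29 counts, and under gtr-1 RNAi it had 9, 13 and 33 counts. Replicates 1 and 2 of gtr-1 RNAi were far below EV and gtr-1 RNAi replicate 3 was just below EV replicate 3, at 0.808 against 0.846 CPM. The log2 fold change was -1.21 ± 0.43 SE (edgeR adjusted p = 0.133), and -1.89 (adjusted p = 0.00523) without gtr-1 RNAi replicate 3. With any other library left out it ran from -1.36 to -0.93, with edgeR adjusted p from 0.244 to 0.332. For pals-19, counts were 17, 29 and 18 under EV and 12, 4 and 10 under gtr-1 RNAi, with the lowest log2 fold change of the 24 tested members at -1.33 ± 0.44 SE (adjusted p = 0.125). The models of pals-18 and pals-19 share 53 exon bases on the same strand, which is 2.25% and 5.49% of their exons.

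The counts of pals-16, pals-17 and pals-20 over those of pals-18 and pals-19 gave ratios of 2.27, 2.08 and 2.47 in EV replicates 1 to 3. In gtr-1 RNAi replicates 1 to 3 the ratios were 10.1, 18.3 and 4.65. The EV libraries are tightly grouped and all gtr-1 RNAi libraries lie above them, replicate 3 nearest. The members of this ratio were also chosen after their values were seen, so its separation follows from that choice, and it was not tested. The 2 other members of the stretch, left out of the ratio, were nearly silent: pals-40 had 6 to 14 counts per library and pals-21 had 0 to 2.

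**Figure D4:**
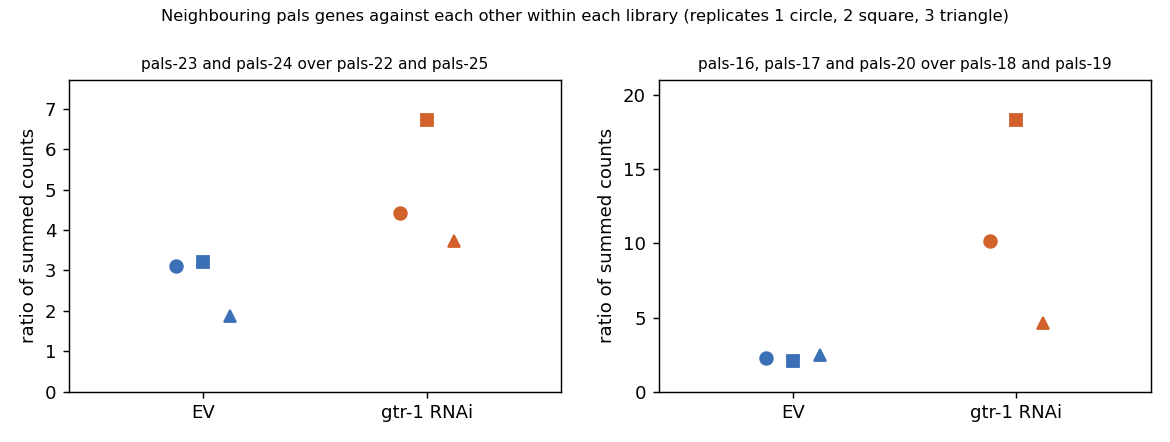
Ratio of summed counts between neighbouring pals genes within each library, with both axes starting at 0. Left, pals-23 and pals-24 over pals-22 and pals-25; right, pals-16, pals-17 and pals-20 over pals-18 and pals-19. All gtr-1 RNAi libraries lie above all EV libraries in both panels, and gtr-1 RNAi replicate 3 lies nearest to EV. The genes of both ratios were chosen after their directions were seen, so this separation follows from that choice. It was not tested.

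The roles of most other members are not established, and only their values are given. On chromosome I, pals-6 measured 4.73, 5.26 and 5.60 CPM in the EV libraries, and 6.02, 7.77 and 6.14 CPM in those of gtr-1 RNAi (edgeR log2 change 0.36 ± 0.15 SE with adjusted p = 0.164). Its neighbour pals-14 measured 2.34, 2.53 and 2.07 CPM in the EV libraries, and 3.28, 3.74 and 2.74 CPM in those of gtr-1 RNAi (edgeR log2 change 0.49 ± 0.18 SE with adjusted p = 0.136). Both expressed members of this stretch were thus above EV in every gtr-1 RNAi library. The remaining tested member there, pals-4, had groups that overlap, with 21, 29 and 46 counts under EV and 30, 32 and 30 under gtr-1 RNAi. Its log2 fold change of -0.13 ± 0.34 SE was 0.30 without EV replicate 3. On the same chromosome but apart from them, pals-1 had 21, 23 and 19 counts under EV and 34, 41 and 27 under gtr-1 RNAi (edgeR log2 change 0.64 ± 0.26 SE with adjusted p = 0.164).

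Expressed members on chromosome V, pals-34 aside, and in the pals-26 stretch of chromosome III had negative fold changes. That of pals-34 was -0.019 ± 0.16 SE, and its sign turned in some fits with 1 library left out. The gene pals-39 measured 2.47, 3.67 and 3.50 CPM in the EV libraries, and 1.55, 1.68 and 2.35 CPM in those of gtr-1 RNAi. All gtr-1 RNAi libraries were below EV, though gtr-1 RNAi replicate 3 was close to EV replicate 1. Its log2 fold change was -0.78 ± 0.23 SE (edgeR adjusted p = 0.118; DESeq2 adjusted p = 0.0487). With 1 library left out, DESeq2 called it in 2 of 6 fits, those lacking EV replicate 1 or gtr-1 RNAi replicate 3. Its neighbours pals-37 and pals-38 had log2 fold changes of -0.34 ± 0.23 and -0.48 ± 0.26 SE (adjusted p = 0.362 and 0.249), and the groups overlap for pals-37. Exons of anr-30 cover 39.3% of pals-37 on the opposite strand, but anr-30 had 0 to 2 counts per library.

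Elsewhere, pals-33 measured 2.71, 3.34 and 3.003 CPM in the EV libraries, and 2.23, 2.28 and 2.37 CPM in those of gtr-1 RNAi (edgeR log2 change -0.39 ± 0.15 SE with adjusted p = 0.151), with the groups apart. The gene pals-26 measured 4.46, 5.87 and 7.46 CPM in the EV libraries, and 3.70, 3.99 and 4.99 CPM in those of gtr-1 RNAi (edgeR log2 change -0.49 ± 0.21 SE with adjusted p = 0.181), with groups that overlap. Its neighbour pals-27 was below EV in every gtr-1 RNAi library, with a log2 fold change of -0.45 ± 0.26 SE (adjusted p = 0.278). The steadiest expressed member was pals-34, at 2.49 ± 0.256 CPM in EV worms, against 2.46 ± 0.144 CPM in gtr-1 RNAi worms (mean ± SD, n = 3 each). Its log2 fold change was -0.019 with a 95% interval of -0.39 to 0.35. The rest of chromosome V held pals-31 at -0.20 and pals-32 at 0.28 on the log2 scale (adjusted p = 0.557 and 0.578). On chromosome IV, pals-29 had 5, 4 and 9 counts under EV and 12, 8 and 11 under gtr-1 RNAi, with groups that overlap and a log2 fold change of 0.71 ± 0.47 SE (adjusted p = 0.350). The last tested member, pals-40, had a log2 fold change of 0.38 ± 0.45 SE (adjusted p = 0.608).

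Of the 14 members that were not tested, 9 had at least 10 counts over the 6 libraries and 5 had fewer: pals-7, pals-10, pals-12, pals-13 and pals-21. The members with at least 10 counts had between 0 and 14 counts in any library. Among them, pals-8 had 1, 5 and 2 counts under EV and 5, 13 and 7 under gtr-1 RNAi, a ratio of 2.999 with an exact binomial interval of 1.31 to 7.69. The gene pals-2 had 5, 2 and 3 counts under EV and 10, 6 and 6 under gtr-1 RNAi, a ratio of 2.11 with an interval of 0.959 to 4.99. Both intervals rest on summed counts and cover counting error only, not the spread among libraries. DESeq2, whose error also holds that spread, gave an unadjusted p of 0.140 for pals-8 and 0.277 for pals-2. The genes pals-8 and pals-2 were the only untested members whose groups did not overlap. The others, pals-3, pals-9, pals-11, pals-15, pals-28 and pals-30, overlapped, as pals-5 did. A count of 0 allows up to 3 counts, which is 0.0734 to 0.0875 CPM in these libraries.

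The known partners of the family were examined as lists. The first held 5 regulators outside the family, and edgeR and DESeq2 each called 0 of them, with 0 at an unadjusted edgeR p under 0.05. The viral RNA sensor gene drh-1 was at 93.1 ± 4.37 CPM in EV worms, against 95.05 ± 4.11 CPM in gtr-1 RNAi worms (mean ± SD, n = 3 each). For zip-1, which encodes a transcription factor of the response, the log2 fold change was 0.016 ± 0.11 SE, and for lin-35, the retinoblastoma-related repressor, it was 0.034 ± 0.05 SE (adjusted p = 0.938 and 0.690). The purine nucleoside phosphorylase gene pnp-1, a negative regulator, had -0.31 ± 0.13 SE (adjusted p = 0.187), and the STAT family gene sta-1, also a repressor of antiviral genes, had -0.15 ± 0.09 SE (adjusted p = 0.325).

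The ubiquitin ligase through which part of the response acts had positive fold changes in 5 of 6 tested subunits, with a list median of 0.23 on the log2 scale. Among all tested genes, 7269 of 14683 had positive fold changes. Of the subunits, 0 were called by edgeR or DESeq2. At an unadjusted edgeR p under 0.05, 1 was higher, where 12.9% of tested genes were. The cullin gene cul-6 measured 3.69, 4.23 and 3.67 CPM in the EV libraries, and 4.46, 4.61 and 4.53 CPM in those of gtr-1 RNAi (edgeR log2 change 0.23 ± 0.13 SE with adjusted p = 0.268). The adaptor gene skr-3 measured 16.5, 19.01 and 17.8 CPM in the EV libraries, and 21.6, 21.0 and 20.0 CPM in those of gtr-1 RNAi (edgeR log2 change 0.23 ± 0.08 SE with adjusted p = 0.130). Both were above EV in every gtr-1 RNAi library, as were 16.6% of all tested genes. Its paralogs skr-4 and skr-5, whose reads may be shared with each other and with skr-3, had 0.23 ± 0.12 and -0.53 ± 0.23 SE (adjusted p = 0.253 and 0.181). The RING protein gene rcs-1 had 0.099 ± 0.14 SE and the F-box gene fbxa-158 had 0.41 ± 0.28 SE (adjusted p = 0.681 and 0.356), while fbxa-75 was too low to test.

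Other genes induced in the response were mostly low in both groups. Of the 18 names written for that list, 13 turned out to be clone names of pals genes and were left to the family. Of the other 5, F26F2.1 and F26F2.3 were below 1 CPM in every library, F26F2.4 had too few counts to test, and eol-1 was at 3.64 ± 0.184 against 3.56 ± 0.219 CPM (mean ± SD, n = 3 each). Where 6.65% of all genes with an adjusted p were higher, DESeq2 called 1 of the 4 tested genes higher and 0 lower. This was sdz-6, with 0.797, 0.228 and 0.437 CPM in the EV libraries, and 2.09, 3.44 and 1.57 CPM in those of gtr-1 RNAi. All its gtr-1 RNAi libraries were above EV, with a log2 fold change of 2.28 ± 0.47 SE (edgeR adjusted p = 0.112; DESeq2 adjusted p = 0.000372).

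The chitinase-like chil genes, several of which respond to oomycetes and are also controlled by pals-22 and pals-25, had 15 of 26 members tested, 6 with positive and 9 with negative fold changes. DESeq2 called 0 higher and 1 lower, where 7.57% of all genes with an adjusted p were lower. The 1 called was chil-23, at 1.404 ± 0.434 CPM in EV worms, against 0.552 ± 0.273 CPM in gtr-1 RNAi worms (log2 fold change -1.34 ± 0.49 SE by DESeq2, adjusted p = 0.0483). The usual reporter gene of that response, chil-27, was too low to test. The highest fold change among the tested chil genes was that of chil-9, named after its values were seen, at 3.28 ± 1.143 SE on the log2 scale (edgeR adjusted p = 0.147). It had 36, 1 and 2 counts under EV and 196, 143 and 47 under gtr-1 RNAi. In the list of RNA interference genes, which matter here because the worms were fed double-stranded RNA, DESeq2 called 2 of 13 higher and 0 lower, where 6.65% of all genes with an adjusted p were higher. At an unadjusted edgeR p under 0.05, 5 of the 13 were higher and 0 lower, where 12.9% of tested genes were higher and 15.3% lower. Every gtr-1 RNAi library was above EV for 5 of the 13, and for 16.6% of tested genes. The 2 called by DESeq2 were the double-stranded RNA channel gene sid-1, at 80.9 ± 4.40 against 96.3 ± 4.31 CPM (log2 fold change 0.26 ± 0.07 SE by DESeq2, adjusted p = 0.00681), and rde-11 (0.22 ± 0.08, adjusted p = 0.0488). By edgeR 0 genes of these lists passed an adjusted p under 0.05.

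**Figure D5:**
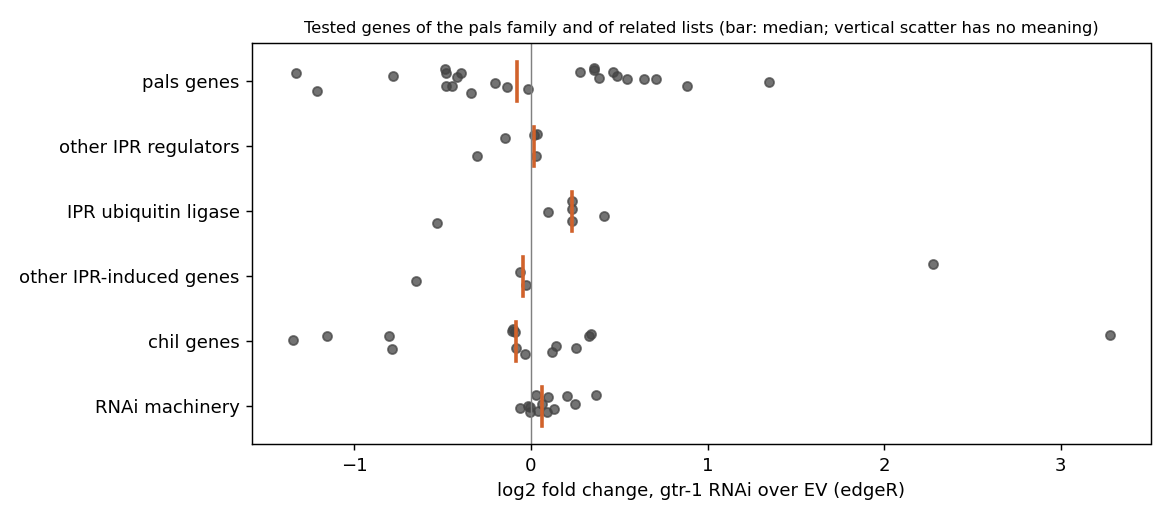
Fold change on the log2 scale (edgeR, gtr-1 RNAi over EV) of each tested gene of the pals family and of 5 related lists, with the median of each list as a bar; the vertical scatter within a list has no meaning. The pals genes lie on both sides of 0, from -1.33 to 1.35, and the median of each list lies between -0.087 and 0.23.

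The summed levels of some tissue markers also differed between the groups. The summed level of 7 intestine markers was 281 to 332 CPM under EV and 353 to 508 CPM under gtr-1 RNAi. DESeq2 called 3 of them higher and 0 lower. Of the 7, 5 had positive and 2 negative fold changes, and 3 were above and 0 below EV in every gtr-1 RNAi library. The summed level of 8 epidermis markers was 497 to 586 CPM under EV and 356 to 474 CPM under gtr-1 RNAi, with 0 called higher and 1 lower. Its members did not all go with the sum: 3 had positive and 5 negative fold changes, and 2 were above and 4 below EV in every gtr-1 RNAi library. That of 9 zygotic embryo markers was 43.3 to 54.2 CPM under EV and 30.9 to 39.4 CPM under gtr-1 RNAi, with 0 called higher and 1 lower. Here 5 of the 8 tested members had positive and 3 negative fold changes, with a median of 0.066 on the log2 scale, and 2 were above and 2 below EV in every gtr-1 RNAi library. The 6 body wall muscle markers overlapped, at 1048 to 1672 CPM and 1475 to 1750 CPM, and so did the 8 sperm markers, at 6.63 to 7.59 CPM and 7.20 to 8.37 CPM. For scale, DESeq2 called 6.65% higher and 7.57% lower of all genes with an adjusted p. Of all tested genes, 16.6% were above and 19.6% below EV in every gtr-1 RNAi library. No marker was at 0 in all libraries. The part of these differences in the values of the pals genes was not tested.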

How the data were processed

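Per the labels' protocols, stranded mRNA libraries were made from RNA of pooled worms; per the submitters' processing notes, STAR, HTSeq and build WBcel235 were used, with versions, annotation release and strand setting not given in the sources used here. The deposited table holds raw counts per gene, which were tested, and normalized values (a signal: counts divided by 1 factor per library by the authors), which were not. Columns of gtr-1 RNAi carry headers that differ from the sample titles after the letters GT; they were assigned by these letters and the number. Positions, exons and overlaps came from Ensembl's annotation of WBcel235, where all 22407 identifiers were found.

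Of 22407 genes with counts, 14683 passed edgeR's filterByExpr. They were scaled with TMM and compared over all 6 libraries, with no covariate, by robust quasi-likelihood fitting in edgeR 4.0.16 under R 4.3.3. Adjusted p-values (Benjamini-Hochberg, every tested gene) under 0.05 were called. Alternative tools were limma 3.58.1 with voom and DESeq2 1.42.0. Other choices tried were size factors, library size alone, other filters, a replicate block, other limits for expression and leaving out each library. In simulated counts for this comparison (14683 genes), edgeR found 92.4% of 4-fold, 68.7% of 2-fold and 38.8% of 1.5-fold changes. It made 12 false calls, where DESeq2 made 52. Each simulated gene was drawn on its own, with no shift of a whole library like that of gtr-1 RNAi replicate 3. The changed genes were picked from all levels. The simulated shares thus need not hold for the real counts or for the low counts of pals genes. All pairs of libraries differed by more than sampling noise.

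Full values were given for 5 regulators and pals-5, the 8 members with the highest mean CPM, members called by edgeR or else DESeq2, and the 3 highest and 3 lowest fold changes; more members were added after their values were seen. In the related lists, regulators and ligase genes were named, and up to 2 called genes per direction. The members and lists were chosen with earlier results of these data known.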

Additional observations from a re-analysis of the deposited data

How the results depend on the processing

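The count of pals genes called by edgeR stayed at 0 with DESeq2 size factors, library size alone, without any filter, when 10 counts in 3 libraries were required and at a threshold of 0.1, and with limma-voom. It was 2 with DESeq2, 12 with limma-voom and sample quality weights, 0 to 8 with 1 library left out in edgeR and 0 to 5 in DESeq2. For all genes, these counts were 1824 with DESeq2, 5537 with quality weights and 0 to 3544 with 1 library left out in edgeR. As shares, DESeq2 called 6.65% higher and 7.57% lower, and quality weights 16.1% and 21.6%. DESeq2 fits with 1 library left out were counted for pals genes only. In the related lists, DESeq2 called 4 (3 higher, 1 lower) and quality weights 17 (10 higher, 7 lower). These lists held 5, 6, 4, 13 and 15 tested genes, with drh-1 in both the regulator and RNA interference lists. With the replicate block, edgeR called 959 genes, 0 of them pals genes, and 1 gene of the related lists. No label states that a replicate number pairs libraries: same-numbered libraries deviated together with correlations of 0.24, -0.11 and 0.20, and EV replicate 2 correlated best with gtr-1 RNAi replicate 3. The median of the tested members was 0.36 without a filter, which adds members of few counts, -0.17 with a filter of 10 counts in 3 libraries, and -0.24 to 0.054 with 1 library left out. Members counted as expressed were 30 at 0.1 CPM, 1 at 10 CPM and 24 by filterByExpr, and 13 to 14 with 1 library left out. Signs turned for pals-4, to 0.11 with quality weights and between -0.38 and 0.30 with 1 library left out, and for pals-34, between -0.092 and 0.054 with 1 library left out, where it was 0.054, 0.015 and 0.0032 without EV replicate 3, gtr-1 RNAi replicate 1 and gtr-1 RNAi replicate 2. The cause of these shifts was not tested. Most members held under 100 counts in a library, which limits precision more than in abundant genes.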
